A study of Homo sapiens with 6 samples.

Results

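The genes described here encode the mitochondrial ribosome and cytochrome c oxidase, and they were compared between flat and low-attachment cultures of SKOV3, a line of human cells long established from an ovarian cancer. Members were all genes whose platform symbol begins with MRPL or MRPS and a number, or with COX and a number, and where a gene had several probe sets the brightest on average was read. This gave 97 of the 14884 named genes: 73 mitochondrial ribosomal protein genes, 16 oxidase subunit genes, 6 oxidase assembly factor genes, COX7A2L and the non-coding transcript COX10-DT. The rule used no difference between conditions.

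All cells grew for 11 days in McCoy's 5A medium with 15% serum. The 2D group (n = 3) was kept on attachment plates, and the 3D group (n = 3) on plates of low attachment, where the medium also held FP001 at 0.015% (w/v), an additive known here by its code name alone. The plate and FP001 differ between the same groups and cannot be told apart. Each sample was a bulk RNA extract on 1 array, and the labels do not say whether the samples of a group were separate cultures, so the p-values measure only the spread among these extracts, which may be technical. In bulk RNA, fewer cells of a type and less RNA per cell cannot be told apart.

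Mitochondria keep their own ribosome, which translates the few proteins still encoded by mitochondrial DNA, and all of its proteins are made from nuclear genes and imported. Some of these proteins have a counterpart in the bacterial ribosome, and others occur only in mitochondria. Cytochrome c oxidase, the last complex of the respiratory chain, joins catalytic subunits made on that ribosome to smaller subunits encoded in the nucleus, with the help of chaperones that bring in copper and haem. Several of the nuclear-encoded subunits exist as a widespread form and a form typical of muscle, lung or testis.

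Levels are given on the log2 scale of RMA, and each change is 3D minus 2D. Array medians ran from 4.30 to 4.37. Correlations across genes were 0.991 to 0.993 among the 2D arrays and 0.995 between 3D replicates 2 and 3, whereas 3D replicate 1 correlated with each of those at 0.988. Over all genes, 10.0% passed the threshold of limma's test (adjusted p under 0.05), with 5.23% above and 4.77% below their 2D level, and the groups did not overlap for 29.2%. Of 5 measured epithelial markers KRT19 (2.70) and EPCAM (1.76) rose, KRT7 fell (-0.93), and KRT18 (0.45) and KRT8 (0.16) did not pass. KRT18 read 9.50 to 9.76 in 2D and 9.75 to 10.22 in 3D. ERBB2 and MUC1, also on that marker list, were not analysed here. Of 5 measured leukocyte markers 3 rose (LAPTM5, LYZ and CD68, by 2.12, 1.83 and 0.68). CD14 (-0.41) and CD53 (0.04) did not pass. The mean of this list, relative to each gene's mean, was -0.46 to -0.41 in 2D and 0.25 to 0.60 in 3D. Of 6 markers of fibroblasts and endothelium LUM (4.40) and PECAM1 (1.27) rose, while DCN, KDR, VWF and THY1 did not pass. The list mean was -0.49 to -0.45 in 2D and 0.37 to 0.58 in 3D. Its median change was only 0.05, with 3 genes positive and 3 negative. The part of these markers in the results was not tested.

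Transcripts of the mitochondrial ribosome showed small changes between the cultures. Of the 73 ribosomal protein genes 0 were called higher or lower (limma, against 10.0% of all genes). The per-gene test with unequal variances also called 0, but it called only 82 genes in all (0.551%). At an unadjusted p under 0.05 there were 2 higher and 2 lower, which is 5.48% of them against 23.5% of all genes. The median change was -0.01, as it was over all genes (-0.01), and 36 genes gave a positive and 37 a negative value. The changes were also small in size, with a median absolute change of 0.08 against 0.15 over all genes. These 73 genes were brighter, with a median level of 7.39 against 5.70 over all genes, and the part of level in these comparisons was not tested. None of the 73 reached 1.5-fold, a size that 7.52% of all genes reached.

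The intervals bound each gene's change singly, and only against the spread among these extracts, which may be technical. The 95% interval of the change lay within 1.5-fold either way for 69 of the 73 genes (94.5%) and within 2-fold for all 73, against 69.6% and 93% of all genes. The median standard error was 0.10 for these genes and 0.12 over all genes. The groups did not overlap for 19 of the 73, with 3D above 2D for 8 and below for 11, which is close to the shares over all genes (13.8% above and 15.3% below).

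**Figure D1:**
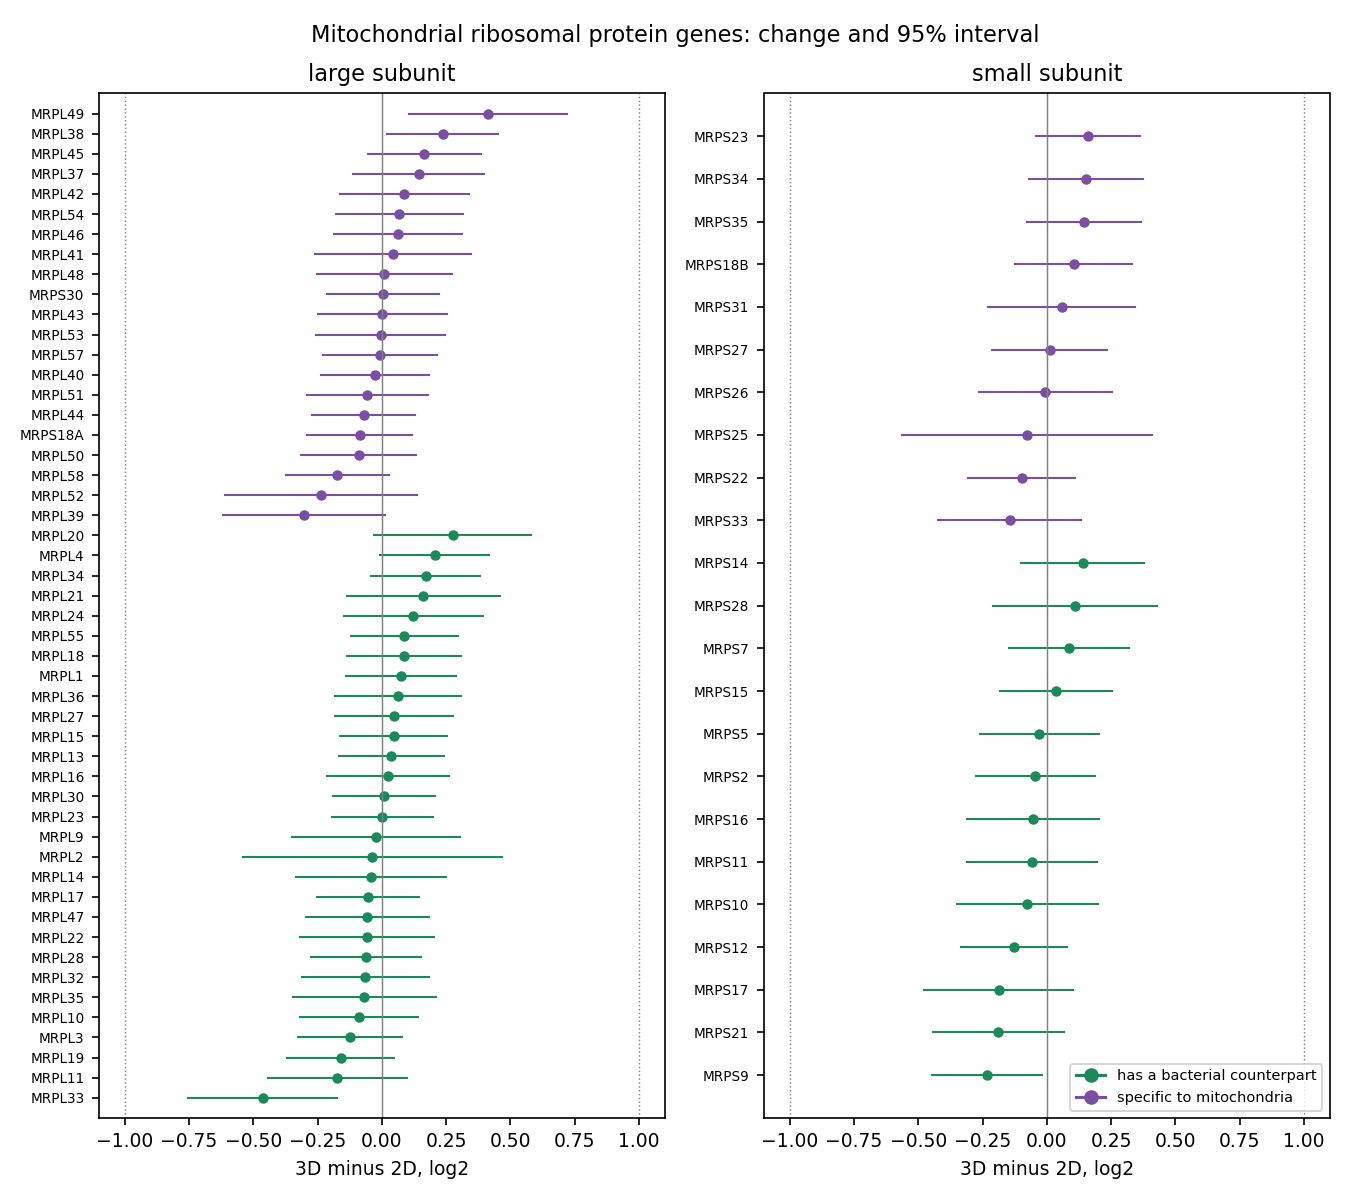
Change of each mitochondrial ribosomal protein gene (3D minus 2D, log2, n = 3 arrays per group) as a point with its 95% interval as a line, for proteins of the large and the small subunit, coloured by whether the protein has a bacterial counterpart. The points lie between -0.46 (MRPL33) and 0.41 (MRPL49), and no interval crosses the dotted lines at a 2-fold change.

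In the large subunit, the 29 measured genes with a bacterial counterpart had a median change of 0.00 and ranged from -0.46 to 0.28. The lowest value belonged to MRPL33, a small protein of the large subunit. It read 7.48, 7.26 and 7.29 on the 2D arrays and 6.75, 7.10 and 6.80 on the 3D arrays. All of its 3D values lay below its 2D values, and the change was -0.46 ± 0.12 (SE, n = 3 per group, adjusted p = 0.0581, 95% interval -0.75 to -0.17), just outside the threshold. MRPL33 passed after a repeated quantile normalization (adjusted p = 0.0365), with the filter on dim probe sets (0.0493), with a trended robust variance (0.03), without 3D replicate 2 (0.0464) and among protein-coding genes alone (0.0396), within a range of 0.03 to 0.218 over all alternatives. MRPL20 gave 0.28 ± 0.13 (adjusted p = 0.261) and MRPL4 0.21 ± 0.09 (adjusted p = 0.226). MRPL4 read 7.54 to 7.57 in 2D and 7.66 to 7.83 in 3D, with no overlap, whereas the MRPL20 groups overlapped. MRPL23, whose protein sits where the new chain leaves the ribosome, read 4.90 to 4.92 in 2D and 4.89 to 4.95 in 3D, a change of 0.00 with a 95% interval of -0.20 to 0.20 and a sign that turned under some alternatives.

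The 21 large subunit genes specific to mitochondria, which by structure include MRPS30 and MRPS18A, had a median of 0.00 and ranged from -0.30 to 0.41. MRPL49 gave the highest value of all 73. It read 7.77, 8.03 and 8.11 in 2D and 8.19, 8.50 and 8.46 in 3D. The groups were apart by a narrow margin between 2D replicate 3 and 3D replicate 1, and the change was 0.41 ± 0.13 (SE, adjusted p = 0.1, 95% interval 0.11 to 0.72). MRPL49 passed without 3D replicate 1 (0.51, adjusted p = 0.044) and with a trended robust variance (adjusted p = 0.0486), within a range of 0.044 to 0.284. MRPL39 gave -0.30 ± 0.14 (adjusted p = 0.235) with 3D replicate 1 the lowest array at 6.62, against 6.96 and 7.08 on the other 3D arrays and 7.12 to 7.30 in 2D. MRPL52 gave -0.24 ± 0.16 (adjusted p = 0.453), and its groups overlapped.

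Changes of genes with MRPS symbols ran from -0.23 to 0.16. The small subunit's 13 measured genes with a bacterial counterpart had a median of -0.05 and a range of -0.23 to 0.14, with 4 positive and 9 negative values. The lowest was MRPS9, which read 7.72, 7.67 and 7.61 in 2D and 7.39, 7.52 and 7.38 in 3D. These groups did not overlap, and the change was -0.23 ± 0.09 (SE, adjusted p = 0.176). MRPS21 gave -0.19 ± 0.11 (adjusted p = 0.368) and MRPS17 -0.19 ± 0.12 (adjusted p = 0.441). MRPS15 read 10.21 to 10.33 in 2D and 10.21 to 10.37 in 3D, so that its groups coincided.

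The 10 small subunit genes specific to mitochondria had a median of 0.03 and a range of -0.14 to 0.16. MRPS23, MRPS34 and MRPS35 gave the largest values, 0.16 ± 0.09, 0.15 ± 0.10 and 0.15 ± 0.10 (SE, adjusted p = 0.335, 0.414 and 0.431). In each of these 3 genes all 3D arrays lay above all 2D arrays, and none passed. Of the ribosome's proteins that carry other symbols, DAP3 (-0.08), PTCD3 (-0.18) and CHCHD1 (0.07) were measured, and 0 of these 3 passed (limma, 0 at an unadjusted p under 0.05).

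Among the cytochrome oxidase subunits most genes read higher in 3D, though few passed. Of 16 nuclear-encoded subunit genes 1 was called, COX5B, which rose (6.25% of the set against 5.23% of all genes), 0 were called lower (limma), and 13 gave a positive change, against 48.7% of all genes. The median change was 0.26, against -0.01 over all genes. At an unadjusted p under 0.05 there were 7 higher and 0 lower, against 1716 higher and 1777 lower of all 14884 genes. The 3D arrays lay above the 2D arrays without overlap for 6 of the 16 (13.8% of all genes) and below for 0. The share called was thus near the background, and the positive balance lay in changes that mostly did not pass. Across all alternatives the median stayed between 0.22 and 0.29, with 11 to 14 positive values. The symbols of genes encoded in mitochondrial DNA were not among the members, so the catalytic subunits were not analysed here.

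COX5B encodes a zinc-binding subunit on the matrix side of the complex. It read 6.20, 5.99 and 5.92 on the 2D arrays and 6.47, 6.86 and 6.61 on the 3D arrays. Every 3D value exceeded every 2D value, and the mean rose from 6.04 ± 0.15 to 6.65 ± 0.19 (SD, n = 3), a change of 0.61 ± 0.13 (SE, adjusted p = 0.0264), or 1.53-fold. The call was lost without 2D replicate 2 (adjusted p = 0.0917), 2D replicate 3 (0.0973), 3D replicate 2 (0.0909) or 3D replicate 3 (0.0825), with all probe sets tested singly (0.101) and in the test with unequal variances (0.16), within a range of 0.0135 to 0.16. COX5B has 8 named pseudogenes in the RefSeq gene table, so its value is uncertain where probes match such copies.

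The other subunit genes with a change of at least 0.2 formed a close series. COX7A1, the muscle form of a subunit, read 4.34, 4.34 and 4.45 in 2D and 4.74, 4.78 and 4.64 in 3D. Its 2D values lay near the array medians (4.30 to 4.37), and there were no detection calls. The COX7A1 groups did not overlap, and the change was 0.34 ± 0.09 (SE, adjusted p = 0.0589). It passed with the filter on dim probe sets (0.0482) and among protein-coding genes alone (0.0385), within a range of 0.0385 to 0.204. Its widespread counterpart COX7A2 read 7.11, 7.09 and 6.93 in 2D and 7.49, 7.26 and 7.24 in 3D, again apart, with a change of 0.29 ± 0.11 (adjusted p = 0.158). COX7B2, a testis form, gave 0.40 ± 0.14 (adjusted p = 0.14), and COX7B, its widespread counterpart, 0.34 ± 0.19 (adjusted p = 0.326). COX7B read 6.84 on 3D replicate 1 and 7.41 and 7.48 on the other 3D arrays, against 6.73 to 7.08 in 2D. Without 3D replicate 1 its change was 0.55 (adjusted p = 0.0372, within a range of 0.0372 to 0.631).

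COX8A behaved like COX7B, with 10.70, 10.39 and 10.04 in 2D and 10.43, 11.07 and 10.91 in 3D. Its groups overlapped through 3D replicate 1, and the change of 0.43 ± 0.21 (SE) did not pass (adjusted p = 0.287). COX6B1 gave 0.34 ± 0.15 (adjusted p = 0.21) with 7.42 on both 2D replicate 1 and 3D replicate 1, which were apart only past the second decimal. COX6C and COX5A were measured at changes of 0.33 and 0.24 (adjusted p = 0.162 and 0.157), with overlap for COX6C and none for COX5A, which read 9.92 to 10.05 in 2D and 10.19 to 10.30 in 3D. COX5A passed with a trended robust variance (adjusted p = 0.0433, within a range of 0.0433 to 0.387). Both of these were named after their values were seen.

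The remaining subunit genes had changes from -0.12 to 0.16 and included the other tissue forms. The highest was COX7C, whose groups overlapped (0.16 ± 0.10 SE, adjusted p = 0.422, named after its value was seen). COX4I1, the widespread form of subunit IV, read 11.08 to 11.19 in 2D and 11.27, 10.88 and 10.86 in 3D (-0.12 ± 0.13, adjusted p = 0.675), and COX4I2, its lung and hypoxia-responsive form, gave -0.04 ± 0.19 (adjusted p = 0.942, 95% interval -0.47 to 0.40). COX6A1, read from the brighter of its 2 probe sets, gave 0.04 and the muscle form COX6A2 -0.09, with adjusted p of 0.877 and 0.826. The testis form COX6B2 gave 0.04 ± 0.13 (adjusted p = 0.892). COX8C, another testis form, read 2.08 to 2.92 in 2D and 2.48 to 3.16 in 3D, around the lower quartile of probe sets (2.93 on average), and its change of 0.12 had a 95% interval of -0.48 to 0.73. For COX6A1, COX6A2, COX6B2, COX4I2 and COX8C the sign of the change was not stable under the alternatives. The difference between the forms of a subunit was not tested and their levels come from unlike probes, so only changes are given.

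**Figure D2:**
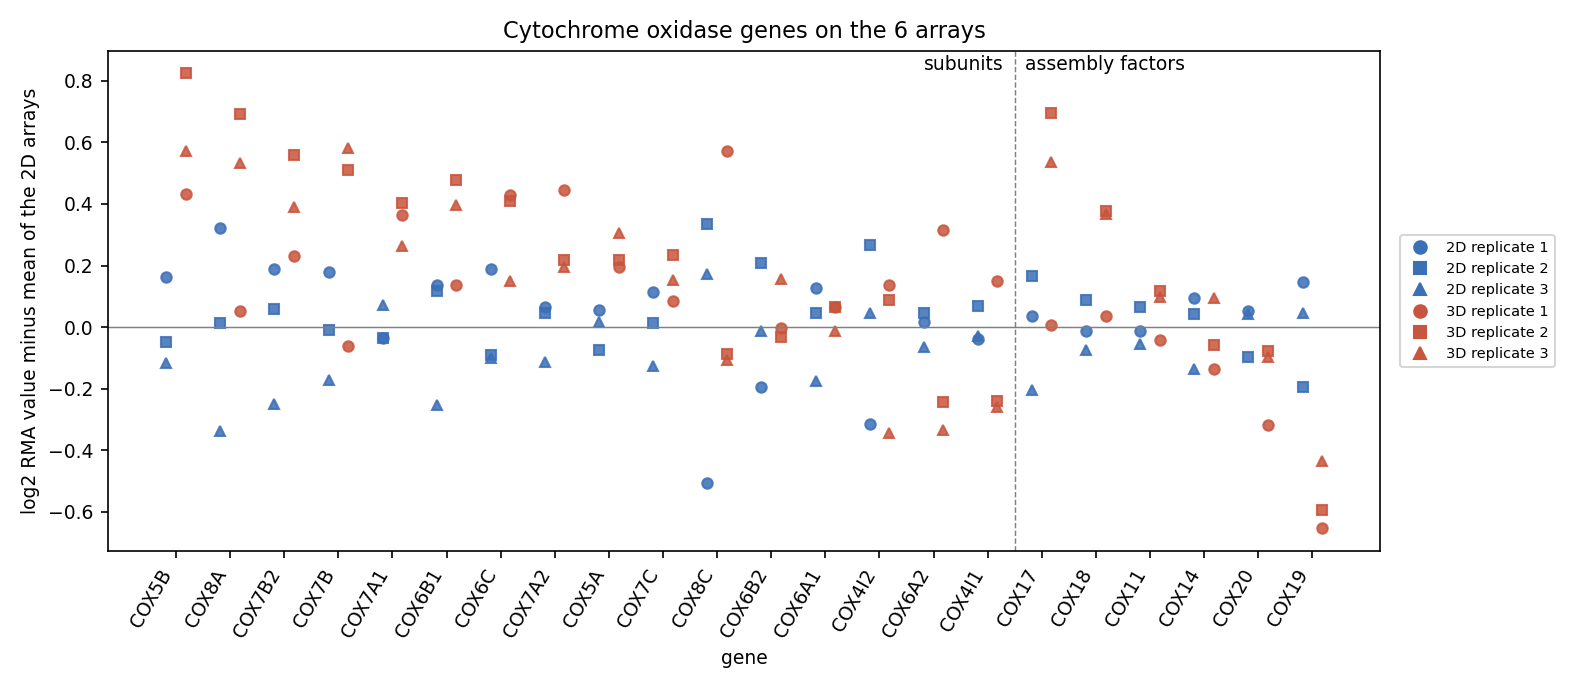
Log2 RMA value of each oxidase gene on each of the 6 arrays, minus the mean of its 3 2D arrays, for subunits and assembly factors in order of their change. COX5B lies highest among the subunits, with all 3D arrays above all 2D arrays, and COX19 lowest among the assembly factors with all 3D arrays below. The red circles (3D replicate 1) lie among the 2D arrays for COX8A, COX7B, COX17 and COX18. They also do so for genes of smaller change, among them COX7C and COX11.

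The assembly factors went in both directions. COX19, a small twin-cysteine protein of the space between the mitochondrial membranes that acts in copper delivery, fell. It read 5.29, 4.95 and 5.19 in 2D and 4.49, 4.55 and 4.71 in 3D. These 3D values lay little above the array medians (4.30 to 4.37), and there were no detection calls. Every 3D value lay below every 2D value, and the mean went from 5.14 ± 0.17 to 4.58 ± 0.11 (SD, n = 3), a change of -0.56 ± 0.12 (SE, adjusted p = 0.0263), or 1.48-fold. It was the 1 called gene of 6 measured factors (16.7% of them, against 4.77% of all genes called lower), and 0 were called higher. With only 6 genes measured, these shares cannot be compared. The call was lost without 2D replicate 1 (adjusted p = 0.0853), 2D replicate 3 (0.0937), 3D replicate 2 (0.0981) or 3D replicate 3 (0.0519), with all probe sets tested singly (0.102) and in the test with unequal variances (0.158), within a range of 0.0168 to 0.158.

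COX17, the copper chaperone that hands copper on to the factors SCO1 and COX11, read 5.16, 5.29 and 4.92 in 2D and 5.13, 5.82 and 5.66 in 3D. Its 3D replicate 1 sat among the 2D arrays, and the change of 0.42 ± 0.19 (SE) did not pass (adjusted p = 0.235), while without 3D replicate 1 it was 0.62 (adjusted p = 0.0307, within a range of 0.0307 to 0.523). COX18, which helps to insert a catalytic subunit into the membrane, gave 0.26 ± 0.12 (adjusted p = 0.252) with the same array apart. The other 3 factors, COX11, COX14 and COX20, are given to complete the list, at 0.05, -0.04 and -0.16. COX7A2L, a factor that joins respiratory complexes into larger assemblies, read 6.47, 6.40 and 6.54 in 2D and 6.32, 6.16 and 6.21 in 3D. Its groups did not overlap, and its change of -0.24 ± 0.09 (SE) did not pass (adjusted p = 0.176). COX10-DT, a non-coding transcript beside an assembly factor gene, gave 0.02 ± 0.11 (adjusted p = 0.945), with a sign that turned under some alternatives.

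Of 17 measured oxidase assembly genes that carry other symbols 0 passed (limma), and 1 had an unadjusted p under 0.05. That gene was COA3, which stabilises a newly made catalytic subunit, with 9.46, 9.45 and 9.23 in 2D and 9.67, 9.89 and 9.81 in 3D (0.41 ± 0.11 SE, adjusted p = 0.0564). The groups did not overlap. The copper chaperone genes SCO1 and SCO2 gave -0.25 and -0.11. These 3 genes were chosen for naming once their values were known.

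Over all 97 members, 1 was called higher and 1 lower (limma), against 5.23% and 4.77% of all genes, and the median change was 0.01. Without 3D replicate 1 the counts were 4 higher (COX5B, COX7B, COX17 and MRPL49) and 1 lower (COX19), while 12.8% of all genes were called. The mean level of the oxidase subunits, relative to each gene's mean, was -0.08, -0.05 and -0.20 on the 2D arrays and 0.12, 0.15 and 0.06 on the 3D arrays. These values separate the cultures, with 2D replicate 3 lowest. The same mean for genes with MRPL symbols was 0.03, -0.01 and -0.03 in 2D and -0.05, 0.03 and 0.02 in 3D, and for those with MRPS symbols -0.01, 0.02 and 0.02 in 2D and -0.02, 0.01 and -0.02 in 3D, so that both sets overlapped. Of all 14884 genes 5123 had their lowest 2D value on replicate 3, and of the 16 subunit genes 10 did. The lowest 3D value was on replicate 1 for 7, on replicate 2 for 1 and on replicate 3 for 8, and over all genes these counts were 6370, 4356 and 4158 of 14884.

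**Figure D3:**
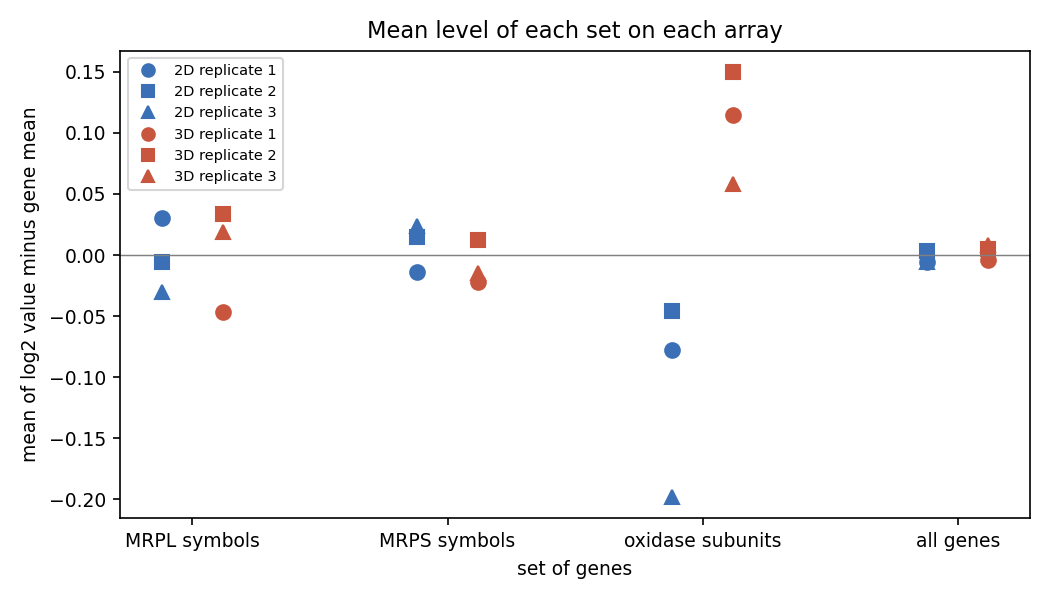
Mean over each set of genes of the log2 value minus that gene's mean over the 6 arrays, for each array (colour is the culture, shape the replicate). The oxidase subunits are below 0 on the 3 2D arrays and above 0 on the 3 3D arrays, while the MRPL and MRPS sets overlap between cultures.

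Promoters are shown for these genes because several regulators of nuclear genes for mitochondrial proteins are known by the DNA they bind. These are the ETS factor GABP, NRF1 and YY1. RefSeq windows (GRCh38.p14) of 250 bases before to 50 after each annotated start were found for 85 of the 97 members. The letters searched on both strands were CCGGAAG for ETS factors and GABP, AAGATGGC for YY1, and GCGC and TGCGC parted by any 1 base for NRF1. The NRF1 letters can match on both strands at the same place, and the ETS and YY1 letters can share AAG, so a stretch may count for both. A gene was counted once per motif.

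The ETS letters stood in 44.6% of 65 ribosomal protein genes and in 5 of 13 oxidase subunit genes (38.5%). They stood in 12.2% of all 27305 genes with a window and in 17.9% of measured protein-coding genes. The YY1 letters stood in 20 of the 65 ribosomal protein genes (30.8%), in 3.52% of all genes and in 5.16% of measured protein-coding genes, and in 0 of the 13 subunit genes. The NRF1 letters stood in 13.8% of the ribosomal protein genes, 1 of the 13 subunit genes, 6.98% of all genes and 10.3% of measured protein-coding genes. By window, of which a gene can have several, the shares over all 35116 windows were 10.3% for ETS, 2.89% for YY1 and 5.78% for NRF1. These are descriptions of letters in a window and not of binding.

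**Figure D4:**
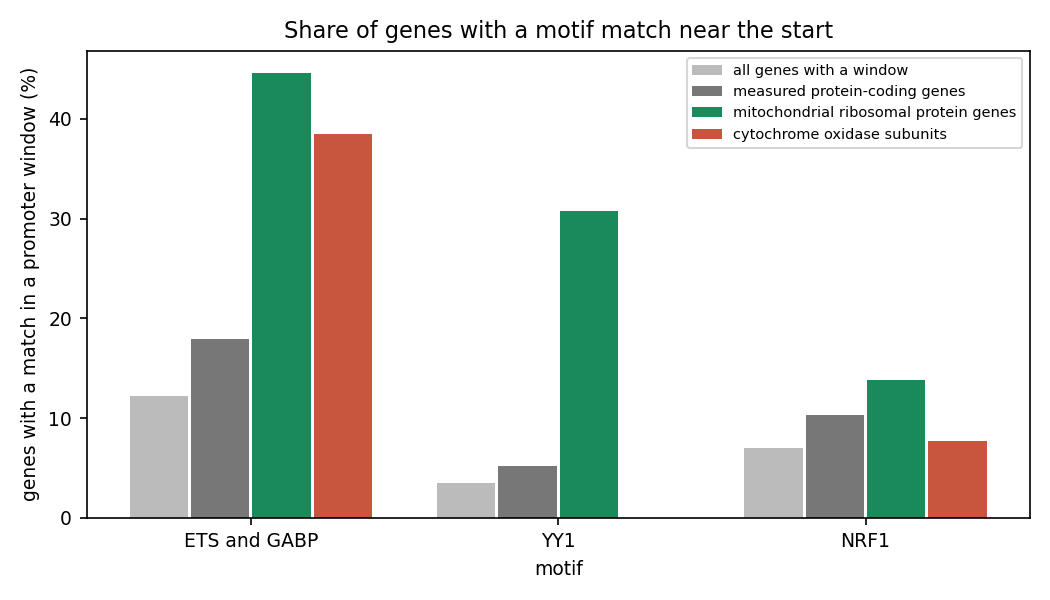
Share of genes (%) with at least 1 match of each motif in a RefSeq promoter window, for all genes with a window, measured protein-coding genes, mitochondrial ribosomal protein genes (65) and oxidase subunit genes (13). The ETS bars are 44.6% and 38.5% for the member sets against 12.2% for all genes, and the YY1 bar is 30.8% for ribosomal protein genes.

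The subunit genes that hold the ETS letters are shown with COX5B first, because it rose, together with COX19, which fell, and COX5A, which hold none of the 3 motifs. Each line runs 5′ to 3′ on the gene's strand from 60 bases before the start to 30 bases from it on, with matches in capitals.
COX5B (chr2:97646002-97646091, + strand): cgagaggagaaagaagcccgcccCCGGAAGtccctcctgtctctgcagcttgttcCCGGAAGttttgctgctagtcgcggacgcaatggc
COX8A (chr11:63974560-63974649, + strand): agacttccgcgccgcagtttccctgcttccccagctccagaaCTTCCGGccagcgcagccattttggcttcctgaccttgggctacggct
COX6B1 (chr19:35648263-35648352, + strand): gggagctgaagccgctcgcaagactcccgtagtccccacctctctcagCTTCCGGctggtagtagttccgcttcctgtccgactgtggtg
COX6A1 (chr12:120438053-120438142, + strand): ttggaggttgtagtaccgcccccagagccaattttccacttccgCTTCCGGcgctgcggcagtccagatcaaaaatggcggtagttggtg
COX4I1 (chr16:85799635-85799724, + strand): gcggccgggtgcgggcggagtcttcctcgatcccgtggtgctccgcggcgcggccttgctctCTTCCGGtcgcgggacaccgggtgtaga
COX5A (chr15:74938044-74938133, - strand): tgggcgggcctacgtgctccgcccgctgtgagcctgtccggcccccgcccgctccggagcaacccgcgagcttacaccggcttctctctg
COX19 (chr7:975520-975609, - strand): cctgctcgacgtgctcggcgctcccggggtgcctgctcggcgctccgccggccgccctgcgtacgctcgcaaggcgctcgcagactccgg

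COX5B held 2 ETS matches, from positions -37 and -5 counted from the start, both on its own strand, and the other 4 subunit genes held 1 each, on the opposite strand and within 18 bases of the start. Of these 5 genes COX5B, COX8A and COX6B1 gave changes of 0.61, 0.43 and 0.34, and COX6A1 and COX4I1 gave 0.04 and -0.12. The median change was 0.34 for the 5 subunit genes with the ETS letters and 0.20 for the 8 without, and COX5A, without them, also had groups that did not overlap. Those without included the tissue forms COX8C (0.12), COX6B2 (0.04), COX6A2 (-0.09) and COX7B2 (0.40), and those with the letters included none. The difference between these medians was not tested.

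For the ribosome, 4 promoters are shown: MRPL33 and MRPL58, with ETS letters just before the start, and MRPL38 and MRPL45, with YY1 letters just after it.
MRPL33 (chr2:27771659-27771748, + strand): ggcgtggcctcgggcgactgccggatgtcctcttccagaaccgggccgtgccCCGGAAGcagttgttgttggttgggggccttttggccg
MRPL58 (chr17:75012610-75012699, + strand): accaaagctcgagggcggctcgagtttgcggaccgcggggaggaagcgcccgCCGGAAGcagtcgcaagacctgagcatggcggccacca
MRPL38 (chr17:75904855-75904944, - strand): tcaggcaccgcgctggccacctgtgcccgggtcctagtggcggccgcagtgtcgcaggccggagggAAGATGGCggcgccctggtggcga
MRPL45 (chr17:38297108-38297197, + strand): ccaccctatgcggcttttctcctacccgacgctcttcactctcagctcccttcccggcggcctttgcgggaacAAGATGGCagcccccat

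MRPL33 and MRPL58, with ETS letters from position -8 in both and from -193 also in MRPL58, gave changes of -0.46 and -0.17, and MRPL38 and MRPL45, with YY1 letters from positions 7 and 14, gave 0.24 and 0.16. MRPL38 also held ETS letters from position -208 and MRPL45 NRF1 letters from -189, both outside the stretch shown, so MRPL38 counts among the genes with ETS letters. The medians with and without the letters lay close together. The median change was -0.03 for the 29 ribosomal protein genes with ETS letters and 0.01 for the 36 without, and 0.01 for the 20 with YY1 letters and -0.01 for the 45 without. MRPL58, which frees peptides from stalled ribosomes, MRPL38 and MRPL45 were chosen for display after their values were seen. Other genes with such letters near the start had changes of the opposite sign. For example, MRPL27 (ETS letters from positions -52 and -8) gave 0.05, and MRPL50 (YY1 letters from position 24) gave -0.09.

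Of the regulators of such genes, 4 were measured and 1 passed, while 10.0% of all genes passed. So few genes do not allow a comparison of shares. MYC, a driver of growth and of mitochondrial gene expression, read 8.32, 8.66 and 8.70 in 2D and 7.70, 7.52 and 7.56 in 3D. Every 3D value lay below every 2D value, and it fell by 0.97 ± 0.13 (SE, n = 3, adjusted p = 0.00332), a call lost in the test with unequal variances (adjusted p = 0.121, within a range of 0.000577 to 0.121). ESRRA, a nuclear receptor that drives oxidative genes, read 5.83, 6.05 and 5.94 in 2D and 6.28, 6.44 and 6.28 in 3D. Its groups did not overlap, and the change of 0.39 ± 0.10 was just outside the threshold (adjusted p = 0.0527) but passed with the filter on dim probe sets (0.0435), with a trended robust variance (0.0418) and among protein-coding genes alone (0.0346), within a range of 0.0346 to 0.189. NRF1 gave -0.27 ± 0.12 (adjusted p = 0.24) and YY1 0.09 ± 0.09 (adjusted p = 0.602). GABPA and the PPARGC1 coactivators were not analysed here.

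The lists for the machinery around the ribosome gave no more than 1 call each, while 10.0% of all genes passed. In lists this short such counts cannot be told from that share. Of 23 genes for ribosome assembly and ribosomal RNA modification 1 rose and 0 fell (median -0.04). It was MPV17L2, which helps to assemble the ribosome, with 7.20, 7.26 and 7.20 in 2D and 7.58, 7.73 and 7.78 in 3D (0.47 ± 0.09 SE, adjusted p = 0.0196). Of 12 translation factor genes 1 rose and 0 fell (median -0.06). It was MTFMT, the enzyme that formylates the initiator methionyl-tRNA, with 8.19, 8.16 and 8.28 in 2D and 8.46, 8.80 and 8.77 in 3D (0.47 ± 0.12 SE, adjusted p = 0.045). The groups of both genes were fully apart. MTFMT lost its call after centring arrays on their medians (0.0567), and MTFMT and MPV17L2 lost theirs without any single array other than 3D replicate 1 (adjusted p up to 0.163 and 0.0873). The rescue factor gene MTRFR gave -0.37 ± 0.10 (adjusted p = 0.0548, named after its value was seen).

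Of 5 measured genes for mitochondrial DNA maintenance and transcription 1 fell and 0 rose. It was TWNK, the helicase of mitochondrial DNA replication, with 6.77, 6.97 and 6.97 in 2D and 6.43, 6.48 and 6.42 in 3D. The groups were apart, and the change was -0.46 ± 0.10 (SE, adjusted p = 0.0249), lost without 2D replicate 2 or 3 or 3D replicate 2 or 3 (adjusted p up to 0.0963). Of 21 protein import genes 1 rose and 0 fell (median 0.06). It was TIMM17A, part of the inner membrane import channel, with 5.76, 5.77 and 5.61 in 2D and 6.12, 6.28 and 6.09 in 3D. Its change was 0.45 ± 0.10 (SE, adjusted p = 0.0303), lost without any single array other than 3D replicate 1 (adjusted p up to 0.125). Of 6 genes of complex III, the respiratory complex that passes electrons to cytochrome c, 5 gave a positive and 1 a negative change (median 0.11). Of these 6 genes 0 passed (limma), and 1 higher member had an unadjusted p under 0.05. That gene was UQCRC2, with 10.30, 10.56 and 10.48 in 2D and 10.60, 10.99 and 10.92 in 3D (0.39 ± 0.13 SE, adjusted p = 0.117), named after its value was seen. TWNK, TIMM17A, MTFMT and MPV17L2 also lost their calls with all probe sets tested singly (adjusted p of 0.102, 0.118, 0.153 and 0.0866) and in the test with unequal variances (0.168, 0.105, 0.243 and 0.134). The mitochondrial aminoacyl-tRNA synthetases were not analysed here.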

How the data were processed

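Total RNA (100 ng per sample) was labelled and hybridised to 1 array per sample, with 3 samples in each group. The deposited values are on a log2 scale, inferred from their range (0.30 to 13.87), and were made with RMA, per the submitters' processing notes; RMA corrects background, equalises array distributions and compresses changes of dim probe sets. The RMA software's version and probe grouping were "not given in the sources used here". Deposited were 53617 probe sets without detection calls, of which 16098 have 1 gene symbol, 0 several and 37519 none. Probe sets of a symbol were reduced to the one with the highest mean, and 5 of the 97 members have more than 1. The number of arrays limits the precision.

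Groups were compared over 14884 genes with limma 3.58.1 in R 4.3.3 (group alone, moderated variances, two-sided, Benjamini-Hochberg over all genes, threshold 0.05), and the code was tested on simulated data. Sample groups came from the titles. Tried in turn were: leaving out each array, a replicate block, a test with unequal variances, a variance prior that was trended and robust, a second quantile normalization, median centring, a filter on dim probe sets (under the mean lower quartile, 2.93), other probe set choices per gene, and every probe set as its own feature. A fit of protein-coding genes alone was added after the data had been seen.

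Named members were those past the threshold, the 3 largest absolute changes of each role, the 2 highest and 2 lowest levels of each complex and the tissue forms of subunits, and other genes were named if a list member passed or was a regulator. The members and lists were chosen with earlier results of these data known. Roles follow the uniform naming of ribosomal proteins. Promoter windows and gene tables are from RefSeq (GRCh38.p14), and motif shares were counted per gene.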

Additional observations from a re-analysis of the deposited data

How the results depend on the processing

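All values rest on 3 arrays a group. Over all genes, 1488 were called, and 760 with the replicate block and 82 with unequal variances. Without single arrays the count was 775 to 1899 (lowest without 3D replicate 3, highest without 3D replicate 1). With every probe set as its own feature, 1284 of 53617 probe sets were called (2.39%, against 10.0% of genes). The other alternatives kept the count within 1.5 times. Members higher in 3D numbered 1, and 2 with the filter on dim probe sets and among protein-coding genes alone, 3 with the trended robust variance, 0 with all probe sets singly, the replicate block or unequal variances, and 0 to 4 without single arrays. Members lower numbered 1, and 2 after repeated quantile normalization, with the dim filter, with the trended variance and among protein-coding genes alone, 0 with all probe sets singly, the replicate block or unequal variances, and 0 to 1 without single arrays. The members' median change was -0.016 to 0.022 over all alternatives.

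With the replicate block, COX5B and COX19 gave adjusted p of 0.0944 and 0.0795, and TWNK, TIMM17A, MTFMT and MPV17L2 lost their calls too (0.0901, 0.0875, 0.109 and 0.0805), but equal numbers did not go together (deviations correlated at -0.279, -0.057 and -0.183). Signs turned for members near 0 that passed nowhere. After repeated quantile normalization COX10-DT gave -0.00797 and MRPL23 -0.00732, and COX6A1 gave -0.035 as the mean and -0.11 as the most variable of its probe sets. Without single arrays COX10-DT ranged from -0.0368 to 0.1, MRPL23 from -0.0183 to 0.0125, COX6A1 from -0.0467 to 0.103, COX8C from -0.13 to 0.292, COX6B2 from -0.0532 to 0.144, COX4I2 from -0.192 to 0.12 and COX6A2 from -0.288 to 0.0352. The causes were not tested.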

Other observations

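COX6A1 was represented by 2 probe sets with the same symbol that read very differently, 11.27 to 11.57 and 2.22 to 3.70 over the arrays, and their changes were 0.04 and -0.11. The gene has 6 named pseudogenes, and whether the brighter probe set reads such copies was not tested. The 2 probe sets of MRPL44 also differed, with means of 7.99 and 2.19. The 7 probe sets of MRPS18B gave the same values to 2 decimals on all 6 arrays, so they count as 1 measurement. Pseudogenes named after a member in the RefSeq gene table were most numerous for COX6C (18), MRPS21 (9), COX5B (8) and MRPL57 (8), whose levels are uncertain where probes match such copies.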
